A study of Rattus norvegicus with 16 samples.

Results

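The intermediate filament genes described here are Nefl, Nefm, Nefh, Prph, Ina, Nes and Vim. They were found as every probe set of the deposited table whose only gene symbol in the platform annotation was 1 of these 7 names, which gave 9 of 31042 non-control probe sets and 7 of 14217 genes. Nefl and Ina each had 2 probe sets and the other genes 1. They were measured in rat adrenal tissue on 16 Affymetrix expression arrays, and each value is a log2 expression value of 1 probe set on 1 array. Hyperplasia is adrenal medullary tissue with excess growth from rats of 2 months with a p27Kip1 mutation (the gene is Cdkn1b, written Cdknb1 in the labels), on 8 arrays, 4 labelled female and 4 male. Young wild type is adrenal medulla of 2 months, as a pool of 2 animals labelled male (pool 1) and a pool of 3 labelled female (pool 2). Pheochromocytoma, a tumour of the catecholamine-producing chromaffin cells, came from p27Kip1 mutant rats on 4 arrays, of which tumours 1 to 3 were from 8 months and labelled female and tumour 4 was from 9 months and labelled male. Older wild type is adrenal medulla as a pool of 2 animals of 10 months labelled female (pool 1) and a second pool, labelled male (pool 2), of 2 animals aged 12 and 17 months. The strain, Sprague–Dawley white eye/Wistar–Kyoto, and specific-pathogen-free housing were common to every group. The labels leave the zygosity of the mutation open, and a pool averages its animals, so the spread between single wild-type rats is not seen.

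Intermediate filaments are rope-like polymers that give cells mechanical strength. In neurons the light, medium and heavy neurofilament subunits, from Nefl, Nefm and Nefh, assemble together with alpha-internexin, from Ina, and in peripheral neurons with peripherin, from Prph; the amount and composition of these filaments bear on the calibre of the axon. Chromaffin cells of the adrenal medulla share their neural crest origin with sympathetic neurons and can grow neurites in culture under nerve growth factor, and peripherin is a marker of the peripheral nervous system and of tumours of this lineage. Nestin, from Nes, marks neural progenitors and is also made by endothelial and supporting cells, and vimentin, from Vim, is the filament protein of mesenchymal, endothelial and many dividing cells.

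Among the 16 arrays, correlations across probe sets were 0.981 to 0.996 within a group and 0.94 to 0.987 between groups, and 0 pairs of arrays held identical values. Xist, which is transcribed from the inactive X chromosome, had a level that disagreed with the labelled sex on 6 of the 10 arrays of 2 months (4 hyperplasia arrays and both young pools) and on 0 of the 6 older arrays. The fit holds labelled sex as a covariate, and values with Xist in its place are given where a call changed. Hexokinase controls, whose 3′ excess over 5′ signal grows with RNA degradation and incomplete labelling, gave a 3′ to 5′ difference (log2) of 1.07 and 1.18 in the young pools, 1.21 to 1.63 in hyperplasia, 2.29 and 2.92 in the older pools and 2.16 to 3.30 in the tumours. Every hyperplasia array was thus above both young pools, beside each hyperplasia difference given here, and every older array above those of 2 months. The part of RNA quality in the differences was not tested. Of the chromaffin markers Th and Dbh, enzymes of catecholamine synthesis, the lowest values on any array were 13.81 and 13.68 in older wild type, 13.87 and 13.81 in hyperplasia and 13.97 and 13.72 in pheochromocytoma, near the upper end of the range of all probe sets (2.41 to 14.54). Cdkn1b itself has 2 probe sets, which differed in hyperplasia by 0.73 ± 0.11 (SE, adjusted p = 0.0017) and by -0.81 ± 0.22 (adjusted p = 0.0394) in limma, and in the tumours by 0.95 ± 0.12 (adjusted p = 0.000526) and 0.10 ± 0.25 (adjusted p = 0.836). Their position relative to the mutation is unstated, so they do not check the genotype.

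Peripherin rose in both mutant tissues and alpha-internexin in the tumours, while no neurofilament subunit rose in either. A difference passed the test at an adjusted p under 0.05 in limma, a linear model with moderated variances fitted to all probe sets at once. Of the 9 probe sets, 1 passed in hyperplasia against young wild type (Prph, higher), where 7.17% of all 31042 probe sets passed and 4.16% were higher. In pheochromocytoma against older wild type 3 of 9 passed, all higher (Prph and both of Ina), where 13% of all probe sets passed and 7.51% were higher, and by gene these were 2 of 7 against 15.3% of 14217 genes. The median log2 difference of the 7 genes, by the brighter probe set, was -0.04 in hyperplasia and 0.39 in the tumours, beside -0.01 and 0.00 over all genes. The arrays did not overlap for 3 of 9 probe sets in hyperplasia (1 higher, 2 lower), where 19.2% of all probe sets did not (9.81% higher, 9.41% lower), and for 6 of 9 in the tumours (4 higher, 2 lower), where 39.8% did not (20% higher, 19.9% lower). For the difference between the 2 mutant effects 0 of 9 passed in limma and 1 (Vim) had an unadjusted p under 0.05, where 0.0193% of all probe sets passed and 10.8% had an unadjusted p under 0.05. Tumour against hyperplasia gave 3 of 9 (Nes higher, Prph and 1 probe set of Nefl lower), where 38.7% of all probe sets passed, 19.3% higher and 19.4% lower. Older against young wild type gave 2 of 9 (Prph and Vim, both lower), where 23.4% passed and 13.1% were lower.

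**Figure D1:**
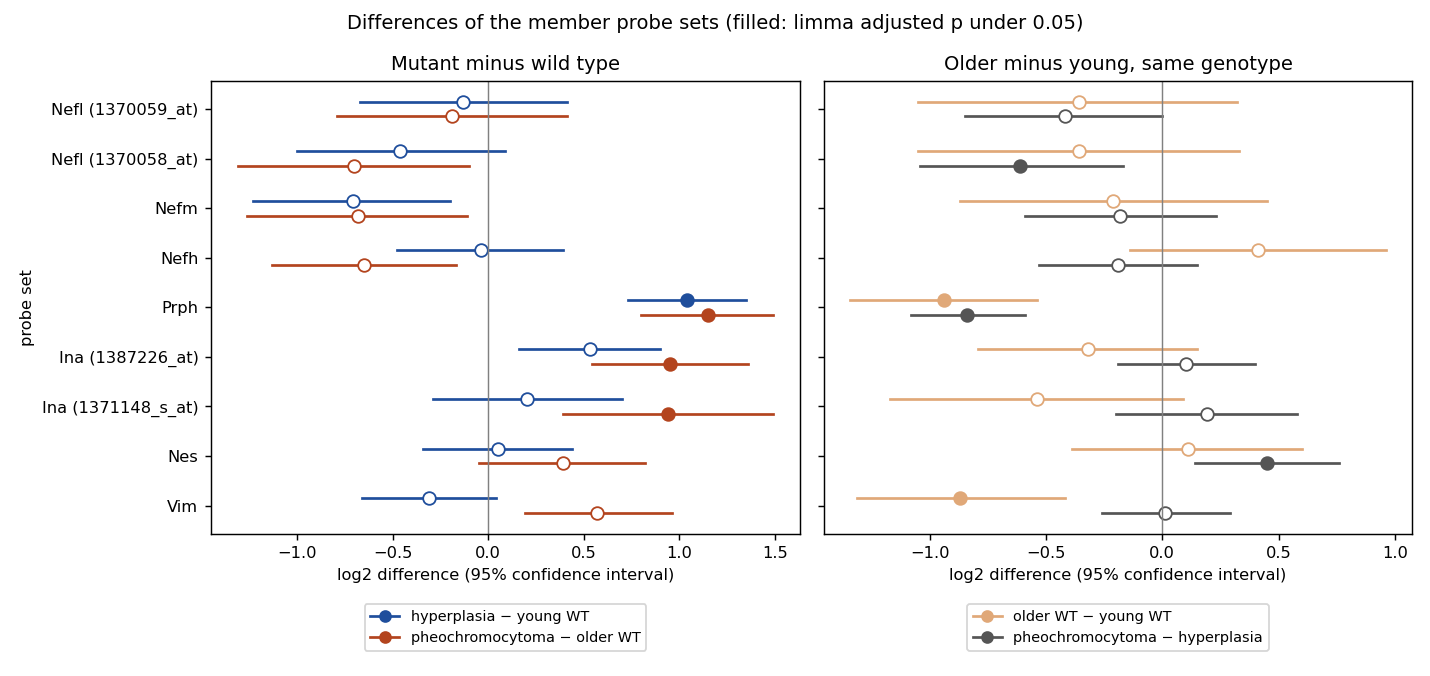
Log2 difference of each of the 9 probe sets (horizontal axis) with its 95% confidence interval from the limma fit on 16 arrays; the left panel sets the mutant tissue against wild type of its age and the right panel the older against the young samples within a genotype, and filled points have an adjusted p under 0.05. Prph is filled in all 4 comparisons, at 1.04 and 1.15 on the left and -0.94 and -0.84 on the right, while the Nefl, Nefm and Nefh points on the left lie between -0.71 and -0.04 and are open.

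The bases before the start sites of Prph and Ina in RefSeq (assembly GRCr8) are shown because these are the 2 genes that rose in the tumours. RefSeq windows of 300 bases, 250 before the start and 50 after it, were matched by gene identifier for 4 of the 7 genes, namely Prph, Ina, Nes and Vim; Nefl, Nefm and Nefh had no entry in the table. Each line gives 150 bases up to the base before the start site, 5′ to 3′ on the plus strand, for Prph at chr7:132097139-132097288 and for Ina at chr1:255837979-255838128, and capitals mark a match to TATAAA or CAGCTG on either strand.
Prph: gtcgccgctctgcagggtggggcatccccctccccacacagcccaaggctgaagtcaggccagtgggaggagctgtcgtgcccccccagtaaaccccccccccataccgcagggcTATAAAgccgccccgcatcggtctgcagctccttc
Ina: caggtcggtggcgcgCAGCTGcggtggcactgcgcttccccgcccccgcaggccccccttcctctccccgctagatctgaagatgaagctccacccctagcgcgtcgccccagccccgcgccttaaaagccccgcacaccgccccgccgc
TATAAA, the letters of a TATA box, begins at position -35 of Prph and at -82 of Vim and is not in the windows of Ina and Nes. CAGCTG, the letters of 1 form of E box, begins at -135 of Ina and is not in the windows of the other 3 genes. Among 33469 RefSeq windows of the same length 14.2% hold TATAAA and 15.1% hold CAGCTG, counted on both strands. A match is a description of the letters, not a site.

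Peripherin was higher in both mutant tissues. Prph lay at 11.05 and 11.35 in the young wild-type pools, and in hyperplasia its lowest, median and highest values were 11.99, 12.28 and 12.37. All 8 hyperplasia arrays were above both pools, with 0.38 between the lowest and the highest. The difference was 1.04 ± 0.15 on the log2 scale, or 2.06-fold (95% confidence interval 0.73 to 1.35, limma adjusted p = 0.00096). In the older wild-type pools Prph was at 10.66 and 9.85, and in tumours 1 to 4 at 11.28, 11.56, 11.80 and 11.25. All 4 tumours were above both pools, and the difference was 1.15 ± 0.16, or 2.21-fold (95% confidence interval 0.80 to 1.49, limma adjusted p = 0.000927). The 2 differences were alike in size, and the difference between them was 0.11 ± 0.22 (95% confidence interval -0.36 to 0.57, adjusted p = 0.892).

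Prph also differed with age at a fixed genotype. Older wild-type pools were lower than young ones by -0.94 ± 0.19 (limma adjusted p = 0.00227), and pheochromocytomas were lower than hyperplasia by -0.84 ± 0.12 (adjusted p = 4.74e-05), with no overlap in either. The order of the group means was therefore hyperplasia (12.24), pheochromocytoma (11.47), young wild type (11.20) and older wild type (10.26). The tumours and the young pools are neighbours in that order whose arrays overlap. Age goes with the hexokinase values given above and, in the mutants, with tumour stage, and these cannot be told apart. The labels name no processing batches, so a link of age with batch could not be checked.

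Older pool 2, which held the lowest Prph value of all arrays, also had the lowest mean of 10 measured chromaffin markers of any array (12.34, against 12.79 in older pool 1 and 12.80 to 13.21 in the tumours) and the highest mean of 10 measured adrenal cortex markers (13.03, against 12.73 in older pool 1 and 10.94 to 12.39 in the tumours). Without that pool the tumour difference of Prph was 0.86 (adjusted p = 0.0324) and the difference between wild-type ages -0.64 (adjusted p = 0.051), which was -0.94 (adjusted p = 0.0557) in a fit on the 4 pools alone. In the young comparison the difference of Prph was 1.03 without pool 1 and 1.05 without pool 2 (adjusted p = 0.0215 and 0.0318), and passed the test. With the mean of the cortex markers as a covariate it was 0.93 in hyperplasia (adjusted p = 0.0285) and 0.98 in the tumours (adjusted p = 0.11). That mean was lower on all mutant arrays than in the pools of their age. Fits that hold it, here and below, therefore cannot tell cortex content from genotype. In such bulk samples fewer cells of a type and less RNA per cell cannot be told apart.

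**Figure D2:**
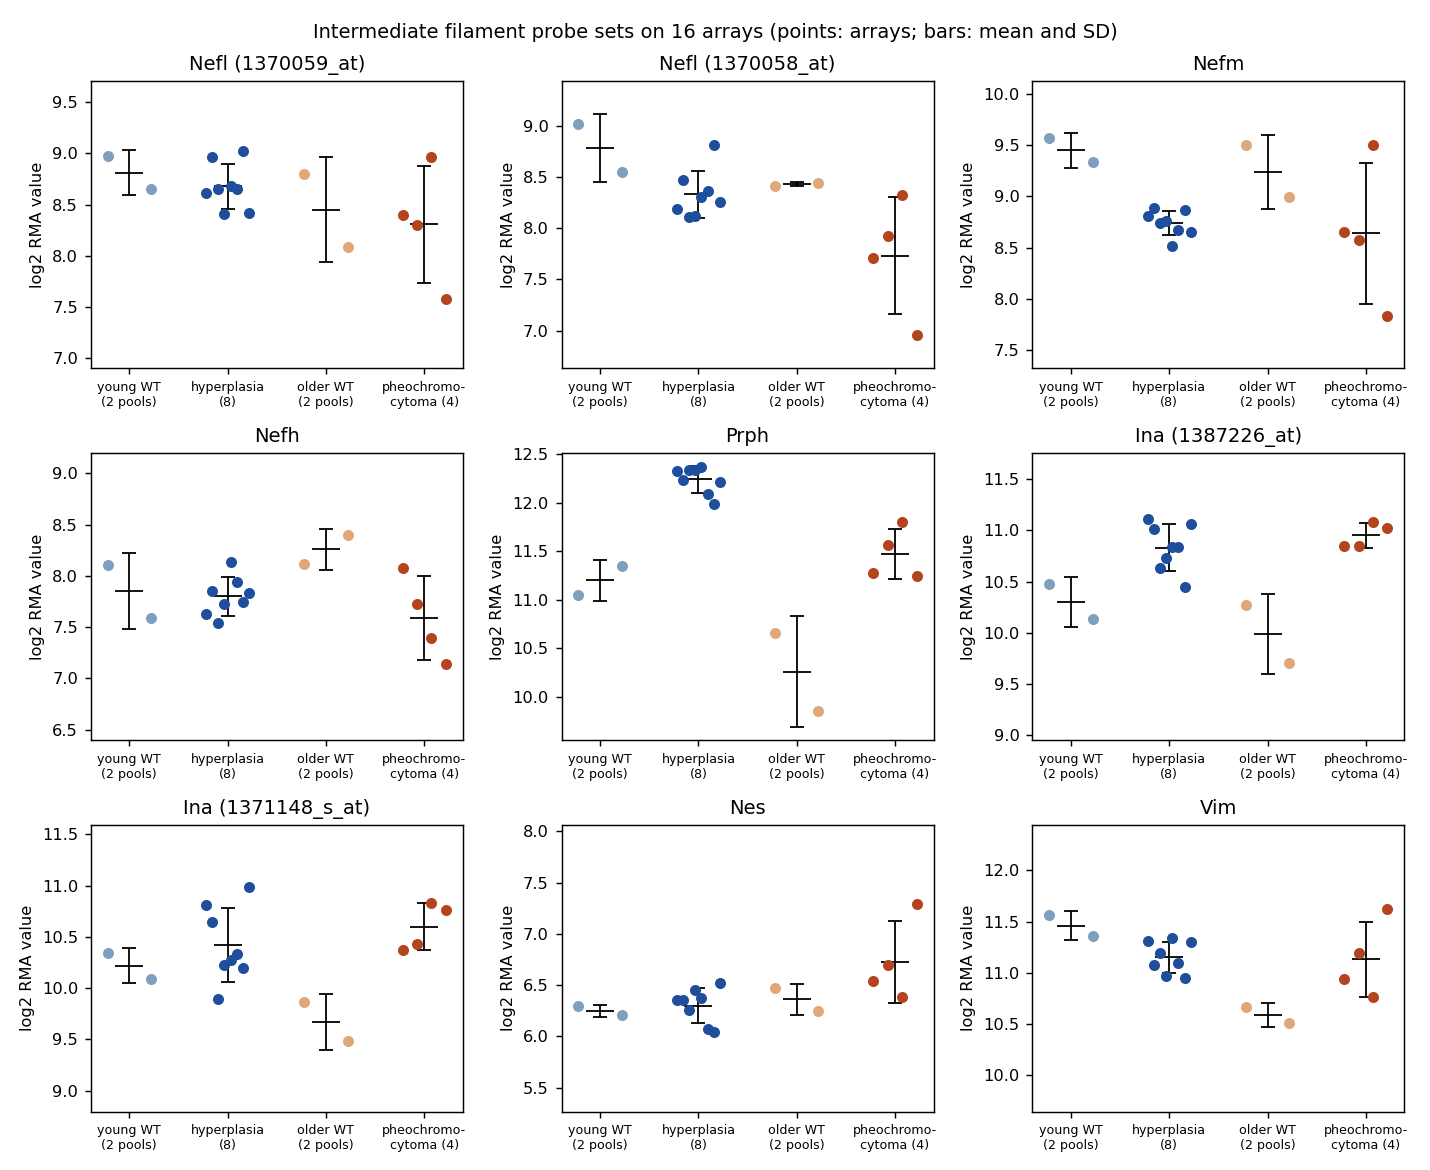
Log2 value (vertical axis) of the 9 probe sets on the 16 arrays by group (horizontal axis); each point is an array or pool, and the black bars are the group mean and SD. The panels share neither their axis limits nor a scale of abundance. The Prph points of hyperplasia (11.99 to 12.37) and of pheochromocytoma (11.25 to 11.80) lie above the pools of their own age, and the Nefl, Nefm, Nefh, Nes and Vim points of the 4 tumours are spread more widely than those of hyperplasia.

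Alpha-internexin was higher in pheochromocytoma and did not pass the test in hyperplasia. The brighter Ina probe set (1387226_at) lay at 10.27 and 9.71 in the older pools and at 10.85, 10.85, 11.08 and 11.02 in tumours 1 to 4. The tumours were all above both pools and within 0.23 of each other, and the difference was 0.95 ± 0.19, or 1.93-fold (limma adjusted p = 0.00601). The second Ina probe set (1371148_s_at) lay at 9.87 and 9.48 in the older pools and at 10.37, 10.43, 10.83 and 10.76 in the tumours, a difference of 0.94 ± 0.26 (adjusted p = 0.0279). In these 6 samples the 2 probe sets therefore gave differences of the same size.

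In hyperplasia the brighter Ina probe set had a lowest, median and highest value of 10.45, 10.84 and 11.11, against 10.48 and 10.13 in the young pools. Hyperplasia array 7 was below pool 1 and the other 7 were above both pools. The difference of 0.53 ± 0.17 missed the threshold (95% confidence interval 0.16 to 0.90, adjusted p = 0.0805). The second probe set ranged from 9.89 to 10.99 in hyperplasia, on both sides of the pools at 10.34 and 10.09, with a difference of 0.20 ± 0.23 (adjusted p = 0.665). The tumour effect minus the hyperplasia effect was 0.42 ± 0.26 and 0.73 ± 0.35 for the 2 probe sets (adjusted p = 0.581 and 0.464), so a difference between the stages was not shown. Between older and young wild type Ina was at -0.32 ± 0.22 and -0.54 ± 0.30, and between tumour and hyperplasia at 0.10 ± 0.14 and 0.19 ± 0.18, and none of these 4 passed. The order of group means of the brighter probe set was pheochromocytoma (10.95), hyperplasia (10.83), young wild type (10.30) and older wild type (9.99), and in each neighbouring pair of that order the arrays overlap.

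The tumour call of Ina was lost without older pool 2, where the difference of the brighter probe set was 0.68 (adjusted p = 0.164) and that of the second 0.70 (adjusted p = 0.326). With the mean of the cortex markers held in the fit they were 0.83 and 0.95 (adjusted p = 0.251 and 0.321), and with only the tumours and older pools in the fit 0.92 and 0.92 (adjusted p = 0.0537 and 0.0648). The second probe set also missed the threshold without tumour 3 (0.86, adjusted p = 0.0592) or tumour 4 (0.88, adjusted p = 0.0835), and the brighter one passed in hyperplasia without hyperplasia array 7 (0.59, adjusted p = 0.0425) and was 0.30 without young pool 2 (adjusted p = 0.641).

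The neurofilament subunits Nefl, Nefm and Nefh did not rise in either mutant tissue, and none of their 8 differences from the wild type of the same age passed the test. All 8 were below 0, where the median of all probe sets was -0.02 in hyperplasia and -0.01 in the tumours. Those of Nefl 1370059_at (-0.13 and -0.19) and of Nefh in hyperplasia (-0.04) were smaller than their SE. Nefm lay at 9.57 and 9.34 in the young pools, and its lowest, median and highest values in hyperplasia were 8.52, 8.75 and 8.89. All 8 hyperplasia arrays were below both pools, and the difference was -0.71 ± 0.24 (95% confidence interval -1.23 to -0.20, limma adjusted p = 0.0917). In the older pools Nefm was at 9.50 and 8.99 and in tumours 1 to 4 at 8.65, 8.57, 9.50 and 7.83. Tumour 3 was as high as older pool 1 and the other 3 tumours were below both pools, with a difference of -0.68 ± 0.27 (adjusted p = 0.107). Without tumour 3 that difference was -0.93 and passed (adjusted p = 0.00838), as did tumour against hyperplasia (-0.43, adjusted p = 0.0277; -0.18 ± 0.19, adjusted p = 0.497, with all 4). Without tumour 4 the difference from older wild type was -0.40 (adjusted p = 0.334), and with the mean of the cortex markers in the fit -0.33 (adjusted p = 0.762). In a fit on hyperplasia and young wild type alone the hyperplasia difference of Nefm was the same size and passed (adjusted p = 0.00646), as it did with tumour 3 or tumour 4 left out of the shared estimate of spread (adjusted p = 0.0182 and 0.0406). Without young pool 1 it was -0.40 (adjusted p = 0.59).

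Nefl, the light subunit, was measured by 2 probe sets whose differences from wild type were below 0 but unlike in size. Between older and young wild type both were at -0.36 ± 0.32. The 2 probe sets were not tested against each other. The probe set 1370058_at lay at 9.02 and 8.55 in the young pools and from 8.11 over a median of 8.28 to 8.81 in hyperplasia, a difference of -0.46 ± 0.26 (adjusted p = 0.314). It was at 8.41 and 8.44 in the older pools and at 7.71, 7.92, 8.32 and 6.96 in the tumours. The 4 tumours were below both older pools, by -0.70 ± 0.28 (adjusted p = 0.114), and below hyperplasia by -0.61 ± 0.20 (adjusted p = 0.0273). The second probe set, 1370059_at, was at 8.97 and 8.65 in the young pools, 8.41 to 9.02 in hyperplasia, 8.80 and 8.09 in the older pools and 8.40, 8.30, 8.96 and 7.58 in the tumours. Its groups overlapped in all 4 comparisons, and its differences from wild type were -0.13 ± 0.25 in hyperplasia and -0.19 ± 0.28 in the tumours (adjusted p = 0.811 and 0.691). The fall of 1370058_at from hyperplasia to tumour was -0.23 without tumour 4 (adjusted p = 0.291) and -0.60 without tumour 1 (adjusted p = 0.0555). It was -0.54 after quantile normalization (adjusted p = 0.0508). Without the 4 hyperplasia arrays whose Xist disagrees with their label, in a fit that also left out labelled sex, it was -0.59 (adjusted p = 0.092). Without tumour 3, 1370058_at passed against older wild type (-0.89, adjusted p = 0.043) and 1370059_at against hyperplasia (-0.61, adjusted p = 0.0215). The difference of 1370058_at from older wild type was -0.33 without tumour 4 (adjusted p = 0.35) and -0.11 with the mean of the cortex markers in the fit (adjusted p = 0.936).

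Nefh, the heavy subunit, lay at 8.11 and 7.59 in the young pools and from 7.54 to 8.14 in hyperplasia, so that the groups overlapped (difference -0.04 ± 0.20, adjusted p = 0.932). In the older pools it was at 8.12 and 8.40 and in the tumours at 8.08, 7.73, 7.39 and 7.14. All 4 tumours were below both pools, and the difference of -0.65 ± 0.23 missed the threshold (95% confidence interval -1.13 to -0.17, adjusted p = 0.0715). It passed with the Xist level in place of labelled sex (-0.73, adjusted p = 0.0329), with sex read from Xist (-0.72, adjusted p = 0.0338), after quantile normalization (-0.75, adjusted p = 0.0419) and without tumour 1 (-0.81, adjusted p = 0.0154). It was -0.38 without tumour 4 (adjusted p = 0.232) and -0.03 with the mean of the cortex markers in the fit (adjusted p = 0.982).

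Nefl and Nefm lie on the same chromosome in the RefSeq table, with 1 annotated pseudogene (Slc25a3-ps1) between them. In the tumours both Nefl probe sets and Nefm had their highest value in tumour 3 and their lowest in tumour 4, with 1.38, 1.36 and 1.68 between the extremes. Nefh, on another chromosome, was also lowest in tumour 4 but highest in tumour 1. Prph, like Nefl and Nefm, was highest in tumour 3 (11.80) and lowest in tumour 4 (11.25). A link of this pattern with the position of the genes was not tested.

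Nestin and vimentin differed among the tumours the other way round. Vim lay at 10.67 and 10.51 in the older pools and at 10.94, 11.19, 10.76 and 11.62 in the tumours. All 4 tumours were above both pools, and the difference of 0.57 ± 0.18 (95% confidence interval 0.19 to 0.96) missed the threshold at an adjusted p of 0.0502. It passed in 7 of 29 alternatives, among them those without tumour 1 (0.62, adjusted p = 0.0478), tumour 3 (0.68, adjusted p = 0.0261), hyperplasia array 1 (0.58, adjusted p = 0.048) or hyperplasia array 7 (0.59, adjusted p = 0.0413), and was 0.39 without tumour 4 (adjusted p = 0.17) and 0.19 with the mean of the cortex markers in the fit (adjusted p = 0.781). In hyperplasia Vim had a lowest, median and highest value of 10.95, 11.15 and 11.34, and all 8 arrays were below the young pools at 11.56 and 11.36 (difference -0.31 ± 0.16, adjusted p = 0.289). The tumour effect minus the hyperplasia effect was 0.88 ± 0.24, which had an unadjusted p of 0.00267 and an adjusted p of 0.23 in limma. Mutant arrays lay outside the pools in opposite directions at the 2 ages, as those of Vim did, for 0.522% of all probe sets. Vim fell between young and older wild type by -0.87 ± 0.21 (adjusted p = 0.00765), and differed between tumour and hyperplasia by 0.01 ± 0.13 (adjusted p = 0.945). The order of the group means was young wild type (11.46), hyperplasia (11.15), pheochromocytoma (11.13) and older wild type (10.59), in which the arrays of hyperplasia and pheochromocytoma overlap. The fall between wild-type ages was -0.68 without older pool 2 and -0.84 without young pool 1 (adjusted p = 0.0984 and 0.0508), and -0.87 in a fit on the 4 pools alone (adjusted p = 0.057).

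Nes lay at 6.30 and 6.21 in the young pools and from 6.04 over a median of 6.35 to 6.52 in hyperplasia, and at 6.47 and 6.25 in the older pools. In the tumours it was at 6.54, 6.70, 6.38 and 7.29, so that 3 of the 4 were above both older pools. It differed from wild type by 0.05 ± 0.18 in hyperplasia and by 0.39 ± 0.20 in the tumours (limma adjusted p = 0.911 and 0.224). The tumour difference was 0.13 without tumour 4, 0.23 without older pool 2 and 0.01 with the mean of the cortex markers in the fit (adjusted p = 0.656, 0.748 and 0.997). The tumours were higher than hyperplasia by 0.45 ± 0.15 (adjusted p = 0.0243), a difference that rests on tumour 4, without which it was 0.19 (adjusted p = 0.258). It was 0.41 (adjusted p = 0.102) without labelled sex and without the 4 hyperplasia arrays whose Xist disagrees with their label.

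**Figure D3:**
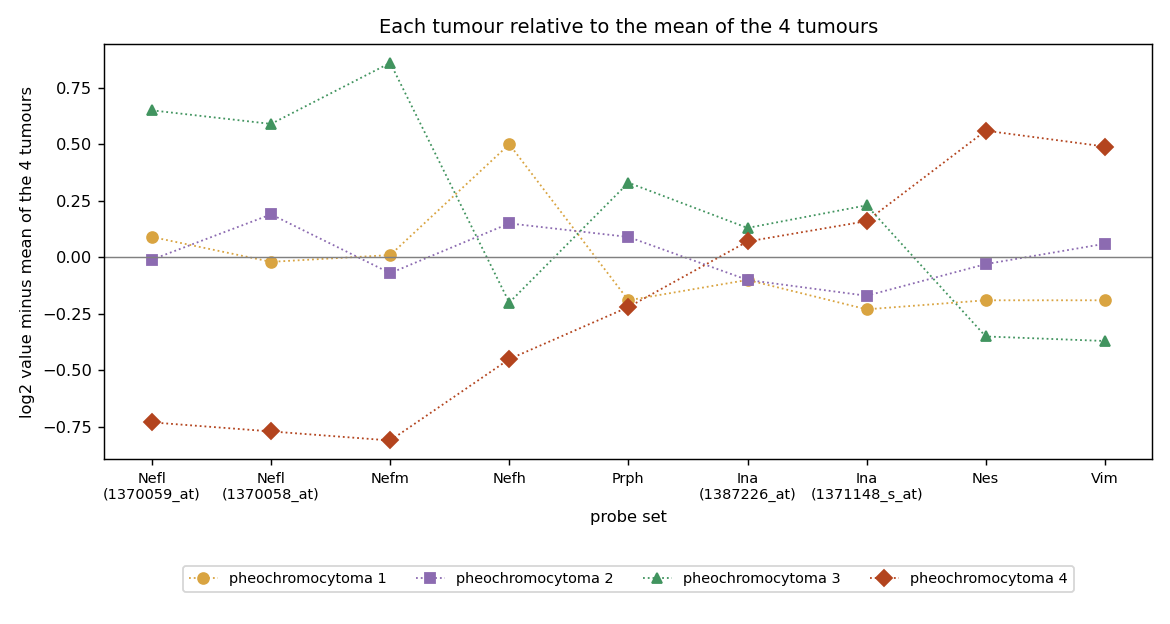
Log2 value of each of the 4 pheochromocytomas minus the mean of the 4 (vertical axis) for the 9 probe sets (horizontal axis); the dotted lines only join the points of a tumour. Tumour 4 is 0.73 to 0.81 below the tumour mean for Nefl and Nefm and 0.56 and 0.49 above it for Nes and Vim, while tumour 3 is 0.59 to 0.86 above it for Nefl and Nefm and 0.35 and 0.37 below it for Nes and Vim.

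Tumour 4 was thus the lowest of the 4 for Nefl, Nefm, Nefh and Prph and the highest for Nes and Vim, and tumour 3 the highest for Nefl, Nefm, Prph and Ina and the lowest for Nes and Vim. The means of the fibroblast and pericyte markers and of the endothelial markers were also highest in tumour 4, at 9.22 (8.64 to 8.86 in the other tumours) and 9.11 (8.62 to 8.73), and its mean of the cortex markers was the lowest, at 10.94 (11.67 to 12.39). Its mean of the chromaffin markers was the highest, at 13.21 (12.80 to 13.04). Tumour 4 was the only one labelled male and from 9 months. The part of these marker levels, of sex and of age in the spread among tumours was not tested.

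The genes whose log2 profile over the 16 arrays was nearest to that of Prph, each profile centred on its own mean, were Slit3, a secreted axon guidance protein, Tcf19 and Lgals1, which codes for the lectin galectin-1. Their root mean square differences from the Prph profile were 0.202, 0.206 and 0.207 (log2), where Prph itself varied by 0.702 about its mean. They rose by 1.04, 1.02 and 1.15 in hyperplasia and by 1.29, 1.27 and 0.86 in the tumours (adjusted p of 0.00615 or less in limma). For Ina, which varied by 0.382, the nearest were Fev, a transcription factor of serotonergic neurons, Crmp1, a collapsin response mediator protein, and Map4, a microtubule-associated protein, at 0.128, 0.131 and 0.138. These rose in the tumours by 0.97, 0.74 and 0.68 (adjusted p of 0.00711 or less), and in hyperplasia were at 0.49, 0.51 and 0.49 (adjusted p = 0.0827, 0.0378 and 0.0314). The neighbours of Prph and Ina were chosen among 20817 probe sets for likeness on these same 16 arrays. Their similar differences therefore follow from the choice and are no separate result.

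Other genes of the filament system moved singly. Of 9 other intermediate filament genes 0 passed the limma test in hyperplasia and 2 had an unadjusted p under 0.05, the smallest being that of Sync, which codes for syncoilin (-0.52 ± 0.18, adjusted p = 0.0927), and the 2 that rose in the tumours were those of nuclear lamins, Lmna by 0.70 ± 0.14 and Lmnb1 by 0.60 ± 0.18 (adjusted p = 0.00517 and 0.0405). Among all genes 8.5% passed in hyperplasia and 15.3% in the tumours. Of 11 measured genes of filament linkers and turnover 3 passed in hyperplasia and 4 in the tumours. Arhgef28, whose product binds the messenger RNA of Nefl, rose by 0.69 ± 0.16 in hyperplasia and 0.99 ± 0.17 in the tumours (adjusted p = 0.0173 and 0.00286). Dst, which codes for the filament linker dystonin, rose by 0.44 ± 0.11 and 0.56 ± 0.12 (adjusted p = 0.0278 and 0.00942), and Myo5a, a myosin that binds neurofilaments, rose in the tumours by 0.79 ± 0.22 (adjusted p = 0.0311). Eppk1, which codes for epiplakin, was lower by -0.50 and -0.64 (adjusted p = 0.0489 and 0.0178), but on every young wild-type, hyperplasia and tumour array it was under that array's first quartile.

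Of 9 measured genes of kinases and phosphatases that act on filaments 1 passed in each comparison, Pak1, a kinase, at -0.48 ± 0.14 in hyperplasia and -0.58 ± 0.15 in the tumours (adjusted p = 0.0463 and 0.0224). For this list and the following ones the shares over all genes were 8.5% in hyperplasia and 15.3% in the tumours. Of 11 genes of axonal transport motors 2 passed in each. Klc1, a light chain of the kinesin that carries neurofilaments, rose by 0.94 ± 0.21 in hyperplasia, where its lowest value of 9.95 was above the pools at 9.44 and 9.66, and by 1.49 ± 0.24 in the tumours (10.44 to 10.64, against 8.91 and 9.19; adjusted p = 0.0164 and 0.0017). The dynein genes Dync1h1 and Dync1i1 were the others, at 0.33 in hyperplasia and -0.46 in the tumours (adjusted p = 0.0308 and 0.0418). Of 11 neuronal microtubule genes 0 passed in hyperplasia in limma and 3 had an unadjusted p under 0.05 (smallest in Dcx, doublecortin, at -0.42 ± 0.13, adjusted p = 0.0669), and 3 rose in the tumours, all microtubule-associated proteins: Mapt, the gene of tau, by 0.58, Map1b by 0.48 and Map6 by 0.46 (adjusted p = 0.0195, 0.0306 and 0.0329). The medians of these 5 lists lay between -0.10 and 0.11 in hyperplasia and between -0.07 and 0.31 in the tumours.

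With age at a fixed genotype, where 21.1% of all genes passed in wild type and 33.8% in the mutants, Sync and Mapt had the largest differences of the 5 lists in wild type. Sync fell by -2.81 ± 0.22 from young to older wild type and by -2.18 ± 0.14 from hyperplasia to tumour, and Mapt by -2.17 ± 0.17 and -1.61 ± 0.11 (adjusted p of 1.09e-06 or less for each). Kif1a, a kinesin of synaptic vesicle precursors, was higher in the tumours than in hyperplasia by 1.86 ± 0.18 (adjusted p = 1.62e-06).

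Markers of some, not all, of the other cells that the tissue could hold differed from wild type. Beside the counts of markers given here, 8.5% of all genes passed in hyperplasia and 15.3% in the tumours. Of 10 measured adrenal cortex markers 2 fell in hyperplasia (Scarb1 by -1.22 and Fdx1 by -0.80) and 6 in the tumours, led by Mrap at -1.96, Nr5a1 at -1.85 and Scarb1 at -1.38. Their mean was 12.31 and 12.41 in the young pools and 11.06 to 11.91 in hyperplasia, and 12.73 and 13.03 in the older pools and 10.94 to 12.39 in the tumours, so all mutant arrays were below the pools of their age. Of 9 ganglion neuron markers 4 passed in hyperplasia, where Vip, a neuropeptide gene, fell by -1.90 and Rbfox3, the neuronal nuclear antigen NeuN, and Chat, which makes acetylcholine, rose by 1.89 and 0.80. Chat was under the first quartile in both wild-type groups. In the tumours 4 passed, led by Vip at -1.80, Rbfox3 at 1.21 and Isl1, a transcription factor, at 0.83. The mean of these markers was 7.46 and 7.54 in the young pools and 7.72 to 7.89 in hyperplasia, and 7.09 and 7.34 in the older pools and 7.14 to 7.54 in the tumours.

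Of 10 chromaffin markers Phox2a, a transcription factor of the lineage, rose by 1.02 and Pnmt, the adrenaline-forming enzyme, fell by 0.64 (log2) in hyperplasia, and Ddc (0.85), Phox2a (0.78) and Slc18a1 (0.69) rose in the tumours. Of 11 fibroblast and pericyte markers 1 passed in each comparison, beside 8.5% and 15.3% of all genes. These were Pdgfra at -0.80 in hyperplasia and the pericyte gene Rgs5 at 2.08 in the tumours. The mean of that list was 9.32 and 9.33 in the young pools and 9.23 to 9.51 in hyperplasia. It was 8.49 and 8.55 in the older pools and 8.64 to 9.22 in the tumours. As for Vim, the older pools were the lowest arrays and tumours lay above them. The same was true of the chromaffin mean (12.34 and 12.79 against 12.80 to 13.21) and of Prph. In hyperplasia the fibroblast and pericyte mean lay on both sides of the young pools, where Vim lay below them. Of 7 Schwann and sustentacular markers 0 passed in hyperplasia in limma (smallest p in S100b, at -0.61, adjusted p = 0.187), and S100b fell by -1.42 and Mbp rose by 0.91 in the tumours. Of 9 endothelial markers 0 passed in hyperplasia (smallest p in Kdr, at 0.44, adjusted p = 0.134) and Tek fell in the tumours by 0.64 on the log2 scale. Of 10 macrophage and leukocyte markers 0 passed in either (smallest p in Csf1r, at 0.39, and in Cd163, at 0.52; adjusted p = 0.0669 and 0.143). At an unadjusted p under 0.05 were 1 Schwann, 1 endothelial and 2 macrophage markers in hyperplasia and 2 macrophage markers in the tumours. The part of these cells in the filament differences was not tested. The fits with the cortex markers as a covariate do not test it either. All mutant arrays lay below the pools of their age in that covariate, so it cannot be told apart from genotype.

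**Figure D4:**
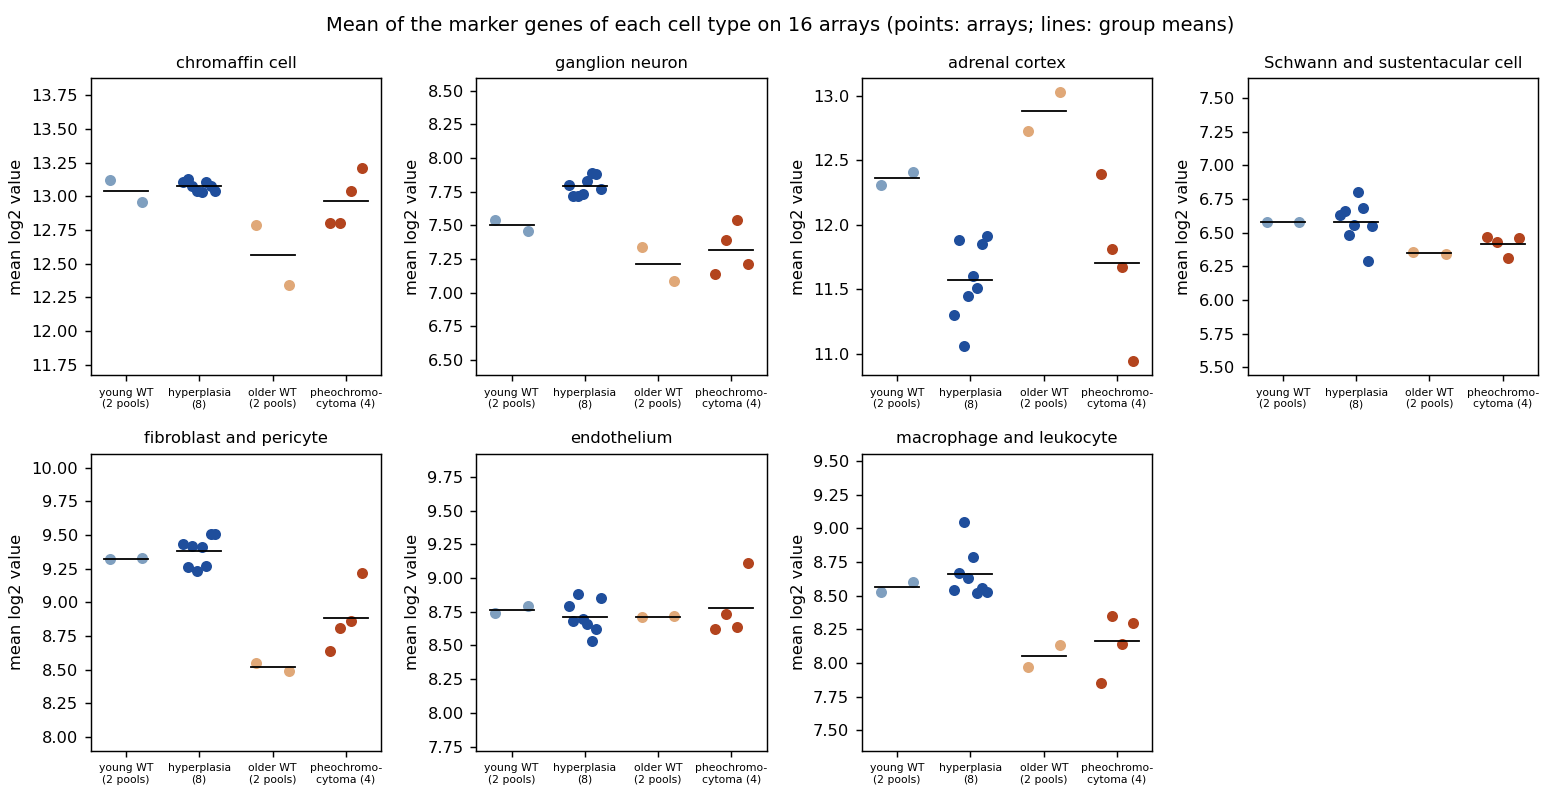
Mean log2 value of the measured markers of 7 cell types (vertical axis) on the 16 arrays by group (horizontal axis); each point is an array or pool and the black lines are group means. The cortex marker means of all mutant arrays (10.94 to 12.39) lie below the pools of their age, and the fibroblast and pericyte means of the older pools (8.49 and 8.55) are the lowest of all arrays.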

How the data were processed

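Per the submitters' processing notes the deposited values came from RMA, whose version, and which arrays were normalized together, are not given in the sources used here. RMA values are on a log2 scale, and the deposited log2 values (2.41 to 14.54, array medians 6.51 to 6.61) were used as they are. Per the labels' protocols, RNA was extracted with Trizol and RNeasy columns and biotin-labelled. Of 31099 probe sets 57 controls were left out; 20826 had 1 gene symbol, 436 several and 9780 none. The probe set with the highest mean over the 16 arrays represents a gene in counts of genes. Array data carry no read depth: the number of arrays limits the precision.

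Differences were tested with limma 3.58.1 in R 4.3.3 (two-sided, all 4 groups and labelled sex in 1 fit on 16 arrays, Benjamini-Hochberg adjustment over 31042 probe sets). Tested on simulated data, the fit recovered 74.6% of probe sets changed by 1 log2 unit in hyperplasia and 80.6% in pheochromocytoma, and 28.4% and 14.9% of those changed by 0.5. The noise was independent, and 67 of 31042 probe sets were changed at each of these sizes. Far more passed in the real data, and the adjustment depends on that number, so these shares do not give its power. The labels call the hyperplasia and tumour arrays biological replicates but do not say that each is a separate animal. The p-values therefore measure the spread between these samples. The members and gene lists were chosen with earlier results of these data known. Named were every member, up to 3 passing genes of each list with the largest change (or the smallest p), and for each member past the test in a mutant comparison the 3 genes with the most similar profile. Alternatives covered sex, scaling, filters, weights, samples in the fit, a replicate block, the cortex markers and leaving out each array.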

Additional observations from a re-analysis of the deposited data

Results flagged for a closer look

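The Vim differences from wild type had opposite signs at the 2 ages, -0.31 in hyperplasia and 0.57 in pheochromocytoma, and neither passed the test (limma adjusted p = 0.289 and 0.0502). All 8 hyperplasia arrays were below both young pools and all 4 pheochromocytomas above both older pools. Such a separation in opposite directions at the 2 ages, in either order, was found for 162 of 31042 probe sets (0.522%). The tumour effect minus the hyperplasia effect was 0.88 on the log2 scale, with an unadjusted p of 0.00267 and an adjusted p of 0.23 in limma, so the difference did not pass over all probe sets. The tumour difference was 0.39 without tumour 4 and 0.19 with the mean level of the cortex markers held as a covariate (adjusted p = 0.17 and 0.781).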

How the results depend on the processing

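The labels do not tie a replicate number to a shared animal, litter or day. The deviations of 14 same-numbered pairs correlated at -0.18 to 0.21, with 2 over 0.1. Those 2 (0.21 each) are the young and older pools, where 2 pools per group force both values to be equal. With groups this small the correlations cannot decide whether the numbers pair the samples. With the number as a replicate block anyway, 89 probe sets passed in hyperplasia (2227 without it), 571 in pheochromocytoma (4027), 0 for the difference of the 2 effects (6), and 0, 1 and 1 members in hyperplasia (1), pheochromocytoma (3) and tumour against hyperplasia (3); Prph was at 0.76 in hyperplasia (adjusted p = 0.153). With the cortex covariate 326, 65 and 3 passed in hyperplasia, pheochromocytoma and the difference of effects, and 0 members in pheochromocytoma. With only the compared groups in the fit 836 passed in pheochromocytoma and 2473 between wild-type ages (7259), and 2, 1 and 0 members in hyperplasia, pheochromocytoma and between wild-type ages. Another fit left out labelled sex and the 4 hyperplasia arrays whose Xist disagrees with their label, and kept both young pools, whose Xist also disagrees. In it 689 passed in hyperplasia, 1 for the difference of effects, and 1 member in tumour against hyperplasia. The difference of effects also gave 10 with the Xist level, 15 with sex read from Xist (chosen after seeing the data), 2 with the filter on dim probe sets, 0 with median centring, 1 with array weights, and 0 genes (1) with the mean of all probe sets.

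Leaving out 1 array gave 375 to 2693 in hyperplasia (375 without young pool 2, 855 without young pool 1), 466 to 4470 in pheochromocytoma (466 without older pool 2, 2159 without tumour 4), 0 to 489 for the difference of effects (489 without older pool 1), 9576 to 12342 in tumour against hyperplasia and 3969 to 7735 between wild-type ages; members past the test ranged over 1 to 2, 1 to 5, 0 to 0, 1 to 5 and 0 to 2. In pheochromocytoma 2332 probe sets were higher and 1695 lower, against 2047 and 2108 after quantile normalization and 1770 and 2335 after median centring.

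Some differences changed sign, and no value of the opposite sign passed the threshold. Vim in tumour against hyperplasia (0.01) was -0.03 without sex, -0.07 with the block, 0 with sex read from Xist and -0.17 to 0.12 leaving out 1 array. Nefl 1370059_at was 0.15 with the cortex covariate in hyperplasia (-0.13; -0.45 to 0.18 leaving out 1 array) and 0.23 in pheochromocytoma (-0.19; -0.46 to 0.11), and its difference of effects (-0.06) was 0.05 without the Xist-discordant arrays, 0.01 with array weights, 0.1 with the block, 0.08 with the cortex covariate and -0.39 to 0.24 leaving out 1 array. Nefm's difference of effects (0.03) was -0.03 after quantile normalization, -0.01 after median centring and -0.31 to 0.33 leaving out 1 array. Nefh in hyperplasia (-0.04) was 0.1 with the block, 0.37 with the cortex covariate and -0.28 to 0.2 leaving out 1 array, and Nes in hyperplasia (0.05) was -0.21 with the cortex covariate. Leaving out 1 array also reversed the difference of effects of Nefl 1370058_at (-0.55 to 0.13) and Prph (-0.18 to 0.43), tumour against hyperplasia for Nefm (-0.43 to 0.11) and Nefh (-0.36 to 0.07), and wild-type age for Nes (-0.06 to 0.28) and Nefm (-0.53 to 0.11). The causes were not tested. Of 1286 values of single probe sets 1205 kept direction and side of the threshold, 25 lost the call and 19 gained it; with the block the lost calls were also those of Ina in pheochromocytoma (1.01 and 1.02, adjusted p = 0.0617 and 0.123) and, in tumour against hyperplasia, Nefl 1370058_at (-0.48, adjusted p = 0.164) and Nes (0.34, adjusted p = 0.112).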
